A study of Canis lupus familiaris with 6 samples.

Results

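Heat shock proteins and their J-domain cochaperones were taken from an array series on canine osteosarcoma, a malignant bone tumour, as the genes whose symbols belong to the HSPA, HSPB, HSPD, HSPE, HSPH, HSP90, DNAJA, DNAJB and DNAJC families. The array held 131 probe sets for 61 such genes, and each gene was read from its brightest probe set. Of these 61 genes, 46 had a mean log2 value at or above 6.07, the filter on dim probe sets, and entered the tests with all 9145 genes that did so. The tumorigenic lines UWKOS1, UWKOS3 and UWKOS7 grew as tumours when transplanted into mice (n = 3), and the non-tumorigenic lines UWKOS2, UWKOS6 and UWKOS8 did not (n = 3). All 6 are primary lines cultured with calf serum, and RNA came from the cultures and was read on 1 Affymetrix array per line. No line was arrayed more than once, so the p-values measure the spread between these 6 lines. Every difference is given in log2 units, with a positive sign where the tumorigenic mean was the higher one.

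Molecular chaperones bind unfolded proteins and keep them from aggregating. HSP70 proteins (HSPA) do so in cycles of ATP hydrolysis that J-domain proteins (DNAJ) start and nucleotide exchange factors end, HSP90 proteins mature kinases and steroid receptors, and the HSPD1-HSPE1 chaperonin folds proteins inside mitochondria. Small heat shock proteins (HSPB) hold clients without ATP, and several of them are abundant in muscle, where they associate with actin and intermediate filaments. The transcription factor HSF1 drives the heat-inducible members, and the unfolded protein response drives those of the endoplasmic reticulum (ER).

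The arrays had medians between 6.03 and 6.05. Of 13 osteoblast lineage markers on the array, 7 lay above the filter, with COL1A1, COL1A2 and SPARC bright in both groups, while ALPL, IBSP, SPP1, PHEX, DMP1 and MEPE lay below it. Of the 7 tested, 6 had lower means in the tumorigenic lines, with a median difference of -0.88. In the limma fit 4 were lower at an unadjusted p under 0.05 (32% of all genes in either direction), and only OMD passed after adjustment. OMD read 9.58 to 9.97 in the non-tumorigenic lines. It stood near or below the filter value in the tumorigenic lines (6.19, 3.22 and 6.42), so the size of its fall is uncertain. Because it passed the filter only through the non-tumorigenic lines, its call is no independent support for lower osteoblast markers. The log2 of the summed marker level was 14.58 to 15.31 in the tumorigenic and 15.64 to 15.84 in the other lines. Of 4 tested leukocyte, 3 endothelial and 1 lens or neural marker none passed in the limma fit, with 1 of each past an unadjusted p of 0.05, and the lone tested epithelial marker, KRT7, rose by 0.81. PTPRC, PECAM1, EPCAM, KRT8 and KRT18 had means below the filter, but EPCAM read 7.65 in UWKOS1, KRT18 7.44 and 6.41 and KRT8 6.49 and 6.64 in UWKOS1 and UWKOS3, and the log2 of the summed epithelial marker level was 7.74 to 9.18 in the tumorigenic and 7.01 to 7.37 in the other lines. The part of these markers in the results was not tested. Control probe sets against the 3' and 5' ends of GAPDH and actin differed by a mean of 0.53, 0.59 and 0.81 log2 units in UWKOS1, UWKOS3 and UWKOS7, by 0.62 in UWKOS2, and by 1.55 and 1.48 in UWKOS6 and UWKOS8. This transcript-end ratio, a measure of RNA quality, was therefore high in 2 of the 3 non-tumorigenic lines.

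In all, 7 chaperone genes rose in the tumorigenic lines, namely HSPA9, HSPA4, HSPA14, HSP90AB1, DNAJC11, DNAJC2 and DNAJC7, and 3 fell, namely HSPB1, HSPB6 and DNAJB4 (limma, adjusted p under 0.05 over all genes tested). The 7 higher genes were 15.2% of the 46 members, against 7.5% of all genes tested, and the 3 lower genes were 6.52%, against 4.63%. HSPB6, 1 of the 3 lower genes, passed the filter only through the non-tumorigenic lines, so its call is no independent support. The median difference of the 46 members was 0.15, that of all genes 0.03. In 14 of the 46 members all 3 tumorigenic values lay above all 3 non-tumorigenic values, against 21.7% of all genes. In 9 of the 46 they lay below, against 16.6% of all genes. Among these 9, HSPB6 and HSPA12B passed the filter only through the non-tumorigenic lines. The remaining 36 members did not pass.

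These calls depended on which lines were included. Over the fits that left out a single line, HSPA4 passed in 5, and HSPA9 and DNAJC11 in 4 each. HSP90AB1, DNAJC2, HSPB1, HSPA14 and HSPB6 passed in only 1 each, and DNAJC7 and DNAJB4 in 0. Without UWKOS6 no member passed, and only 12 genes of all 9145 did (0.131%); at an unadjusted p under 0.05 it gave 10 members higher and 5 lower, against 14 and 7 with all lines (21.8% and 32% of all genes, both directions together). The differences stayed about as large without UWKOS6: 1.46 for HSPA9, 1.42 for HSPA4 and -1.69 for HSPB1. Without UWKOS8 only HSPA4 passed, as did 3.64% of all genes, and without both lines no member passed (0.0109% of all genes; 6 members higher and 2 lower at an unadjusted p under 0.05, as were 12.1% of all genes in either direction). Leaving out UWKOS2 gave 3 members higher and 1 lower (3.18% and 2.04% of all genes), and all 4 were among the 10 calls with all lines. Leaving out UWKOS3 gave 3 and 0 (2.06% and 1.84%), all 3 of the same calls, with 12 higher and 6 lower at an unadjusted p under 0.05 (27.4% of all genes). Leaving out UWKOS1 gave 5 and 2 (3.75% and 2.68%), of which 5 were among the 10, with DNAJB9 and DNAJC17 added. Leaving out UWKOS7 gave 9 and 1 (9% and 5.36%), of which 5 were among the 10; DNAJA3, HSPA2, HSPD1 and HSPE1 were added, and the 1 lower gene was HSPB2. When the GAPDH end ratio entered the fit no member passed, while 12 were higher and 7 lower at an unadjusted p under 0.05 (20.8% of all genes), and only 10 of all genes passed (0.109%). Centring the arrays on their hybridization controls moved the median of all genes from 0.03 to 0.20. Of the 46 members it gave 10 higher and 1 lower, against 12.5% and 3.32% of all genes.

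**Figure D1:**
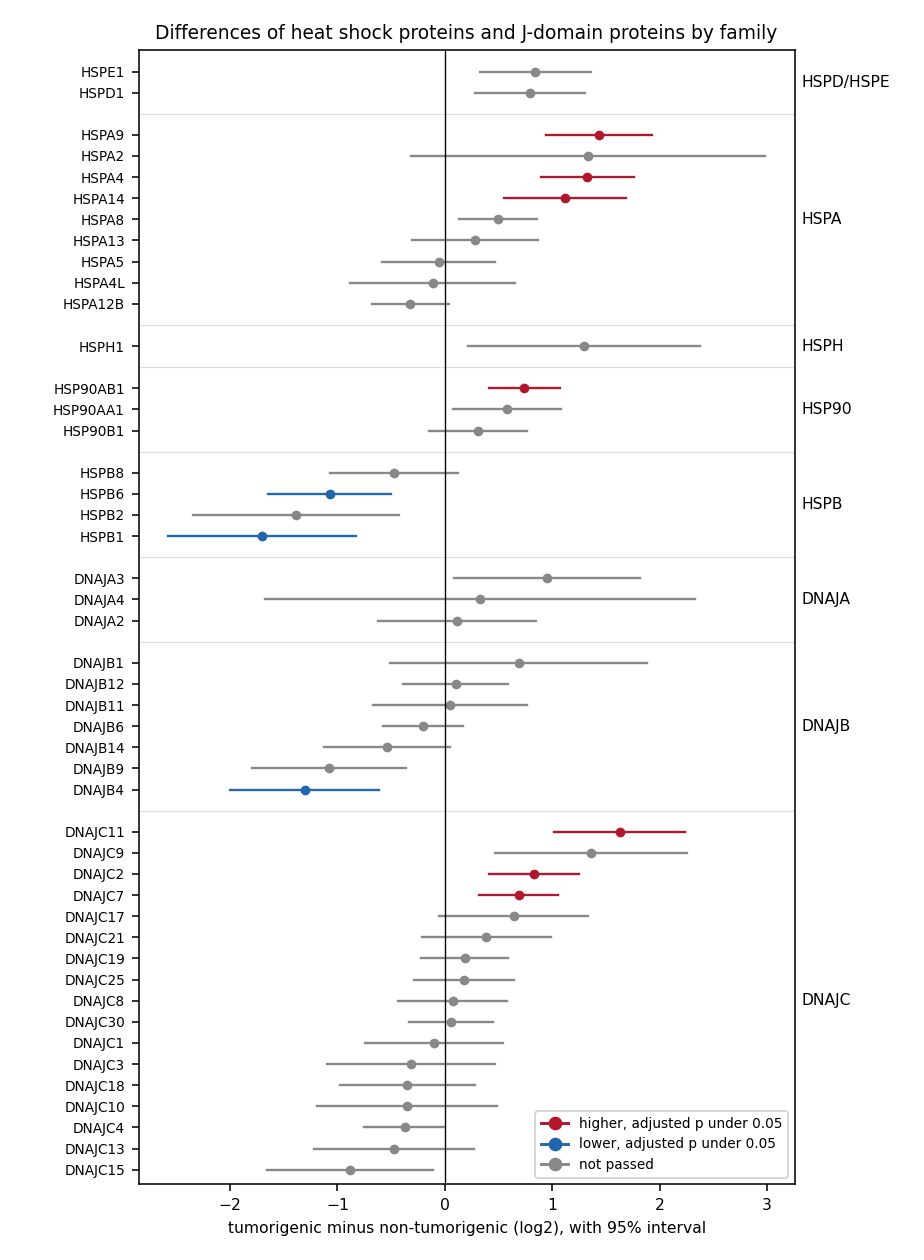
Difference of each of the 46 tested members between tumorigenic and non-tumorigenic lines (horizontal axis, log2) with its 95% interval from the limma fit, 1 gene per row, grouped by family. Red marks the 7 members that rose, blue the 3 that fell and grey those that did not pass; all 4 HSPB members lie left of 0.

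The mitochondrial chaperonin genes stood higher in every tumorigenic line without passing on their brightest probe sets. HSPE1, the lid of the chaperonin, measured 13.92, 14.31 and 13.58 in UWKOS1, UWKOS3 and UWKOS7 and 13.15, 13.02 and 13.11 in UWKOS2, UWKOS6 and UWKOS8. The groups did not overlap, and the difference of 0.84 (SE 0.22) missed the threshold (adjusted p = 0.0529). HSPD1, which forms the folding chamber, measured 13.59, 14.01 and 13.36 against 12.81, 12.74 and 13.04, a difference of 0.79 (SE 0.21, adjusted p = 0.0601). UWKOS3 was the highest of the 6 lines for both genes.

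HSPD1 and HSPE1 are neighbours in the gene order of the RefSeq assembly UU_Cfam_GSD_1.0. Both of HSPD1's dimmer probe sets passed, with differences of 1.49 (adjusted p = 0.0331) and 2.96 (adjusted p = 0.0349). On the dimmest the lines read 11.51, 12.70 and 10.27 against 9.07, 7.90 and 8.63, and UWKOS6 was the lowest. The mean transcript-end ratio was high in UWKOS6 (1.55) and in UWKOS8 (1.48), and its part in this value was not tested. Against UWKOS2 alone the tumorigenic mean was higher by 0.85, 1.46 and 2.43 on the 3 probe sets. HSPE1 had a single probe set, of a kind whose probes can also match similar sequences.

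Among the HSP70 genes, 3 of 9 tested rose (33.3%, against 7.5% of all genes) and none fell, with a median difference of 0.50. HSPA9 (mortalin), the HSP70 of the mitochondrial matrix and motor of protein import, measured 11.55, 11.97 and 11.39 in the tumorigenic lines and 10.34, 10.25 and 10.00 in the others. All tumorigenic values stood above all others, by 1.44 on average (SE 0.21, 2.71-fold, adjusted p = 0.0171). Its 2 further probe sets also rose, by 1.25 (adjusted p = 0.026) and 2.67 (adjusted p = 0.0197), and against UWKOS2 alone the 3 probe sets were higher by 1.29, 1.36 and 1.98.

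HSPA4, which acts on HSP70 as a nucleotide exchange factor, measured 11.70, 11.87 and 11.53 against 10.39, 10.57 and 10.17. The groups lay apart by more than the spread of either, with a difference of 1.32 (SE 0.18, adjusted p = 0.016), and by 1.31 against UWKOS2. It was the member that passed most often when the processing or the set of lines was changed, in 15 of 19 alternatives. Its other 2 probe sets were below the filter and differed by -0.09 and -0.17, the opposite sign.

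HSPA14 is the HSP70 that sits with the J-domain protein DNAJC2 on the ribosome. It measured 10.69, 11.51 and 11.26 against 10.03, 10.12 and 9.94, a difference of 1.12 (SE 0.24, adjusted p = 0.0347). UWKOS1 was closest to the non-tumorigenic lines but above all of them. On a second, dim probe set the difference of 0.05 did not pass (adjusted p = 0.821).

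HSPA8, the constitutive cytosolic HSP70 and the HSPA gene of highest mean, read 13.57, 13.76 and 13.59 against 13.19, 13.00 and 13.24. The groups did not overlap, yet the difference of 0.50 (SE 0.15) did not pass (adjusted p = 0.0802). HSPA2, the HSP70 known from the testis, varied most within the family, at 9.92, 10.07 and 7.70 against 7.76, 7.34 and 8.60. UWKOS7 fell among the non-tumorigenic lines, and the difference of 1.33 had an SE of 0.68 (adjusted p = 0.235).

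Of the remaining tested HSPA genes, HSPA12B differed by -0.32 (adjusted p = 0.194), HSPA13 by 0.28 and HSPA4L by -0.11, and HSPA12A was below the filter. The heat-inducible HSP70 of the cytosol is listed on this array under the symbol HSP70, outside the family symbols used here. It read 10.19, 8.60 and 7.94 against 8.49, 9.37 and 8.53, with overlapping groups and a difference of 0.11 (SE 0.59, adjusted p = 0.915).

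HSPH1, a large HSP70 relative that serves as a nucleotide exchange factor and holds unfolded proteins, was highest in UWKOS1. Its values were 12.96, 11.24 and 11.87 against 10.81, 10.35 and 11.03. Although all 3 tumorigenic values were the higher ones, the difference of 1.30 (SE 0.45) did not pass (adjusted p = 0.105). Without UWKOS1 it was 0.83. Its other probe sets differed by 1.70 and 2.05 and did not pass either (adjusted p = 0.0864 and 0.0789).

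HSP90AB1, the constitutive cytosolic HSP90, rose with little spread in either group. It read 13.89, 13.78 and 13.94 in the tumorigenic lines and 13.12, 13.10 and 13.18 in the others, a difference of 0.74 (SE 0.14, adjusted p = 0.0274). Further probe sets rose by 0.60 (adjusted p = 0.0462) and 1.24 (adjusted p = 0.0147), and against UWKOS2 the brightest was higher by 0.76. Closely related copies of HSP90 genes may share probes of this kind, so the gene's own level is uncertain.

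HSP90AA1, the heat-inducible cytosolic form, read 14.08, 13.94 and 13.58 against 13.11, 13.18 and 13.57. UWKOS7 and UWKOS8 were nearly equal, and the difference of 0.58 (SE 0.21) did not pass (adjusted p = 0.116). HSP90B1, the HSP90 of the ER, read 13.49, 13.19 and 13.73 against 13.29, 13.03 and 13.16, with overlapping groups and a difference of 0.31 (adjusted p = 0.318). The median of the 3 HSP90 genes was 0.58.

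Small heat shock proteins went the other way: all 4 tested HSPB genes had lower means in the tumorigenic lines, with a median difference of -1.23. Of the 4, 2 fell (50%, against 4.63% of all genes), and 1 of these, HSPB6, passed the filter only through the non-tumorigenic lines. HSPB1 (HSP27), which stabilises actin filaments and is among the most studied small heat shock proteins in cancer, read 12.64, 11.32 and 11.41 in the tumorigenic lines. In the non-tumorigenic lines it read 13.44, 13.51 and 13.53. The non-tumorigenic values were thus nearly identical while UWKOS1 lay between them and the other tumorigenic lines, and the difference was -1.70 (SE 0.36, 3.25-fold lower, adjusted p = 0.0356). Its second probe set also fell, by 2.61 (adjusted p = 0.0237), and against UWKOS2 the brightest was lower, at -1.65.

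HSPB6 (HSP20), a small heat shock protein of muscle, was dim, at 5.80, 6.14 and 6.04 against 6.67, 7.07 and 7.46. The groups did not overlap, the difference was -1.07 (SE 0.24, adjusted p = 0.0385), and against UWKOS2 it was -0.68. HSPB6 passed the filter only through the non-tumorigenic lines, since its tumorigenic mean of 5.99 lies below it. Its call is therefore no independent support for a lower HSPB family, and the size of its fall is uncertain.

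HSPB2, another muscle member, read 8.26, 9.02 and 9.76 against 10.77, 10.29 and 10.12. All tumorigenic values were the lower ones, but the difference of -1.38 (SE 0.40) did not pass (adjusted p = 0.0699). On its second probe set the groups overlapped, with a difference of -1.18 (adjusted p = 0.162).

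HSPB8, the partner of BAG3 in clearing misfolded proteins, differed by -0.47 (adjusted p = 0.247), and its 3 probe sets had both signs. HSPB7, a small heat shock protein of heart and skeletal muscle, lay just below the filter because it was dim in the tumorigenic lines, at 3.93, 4.44 and 4.50 against 6.31, 8.70 and 8.15. In the fit without the filter its difference was -3.43 (adjusted p = 0.0331), where 2.49% of all genes were lower. Against UWKOS2 alone it was -2.02, and on 2 further probe sets, also below the filter, the differences were -0.63 and -0.35. Whether its tumorigenic values exceed background is unknown, so this size is uncertain. HSPB3 and HSPB9 were below the filter and differed by -0.08 and -0.06.

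CRYAB, the small heat shock protein alpha-B-crystallin, carries no HSPB symbol and was looked up as a relative. It read 9.38, 8.13 and 9.70 against 12.46, 13.08 and 13.02. This fall of 3.78 (SE 0.43, adjusted p = 0.0144) was larger than that of any tested HSPB gene, and against UWKOS2 the difference was -3.39. CRYAB adjoins HSPB2 in the RefSeq gene order.

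Muscle and contractile markers moved in the same direction as these genes. Of 14 such markers 9 lay above the filter, with a median difference of -2.0. ACTG2 (-3.19), ACTA1 (-3.70) and TPM2 (-1.50) fell while none rose (33.3%, against 4.63% of all genes lower). The log2 of their summed level ranged from 12.35 to 15.08 in the tumorigenic lines and from 15.83 to 16.15 in the others; MYH11, LMOD1, SYNPO2, TNNT2 and MYOG were below the filter. Their part in the result was not tested, and in bulk RNA fewer cells of a type and less RNA per cell cannot be told apart.

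**Figure D2:**
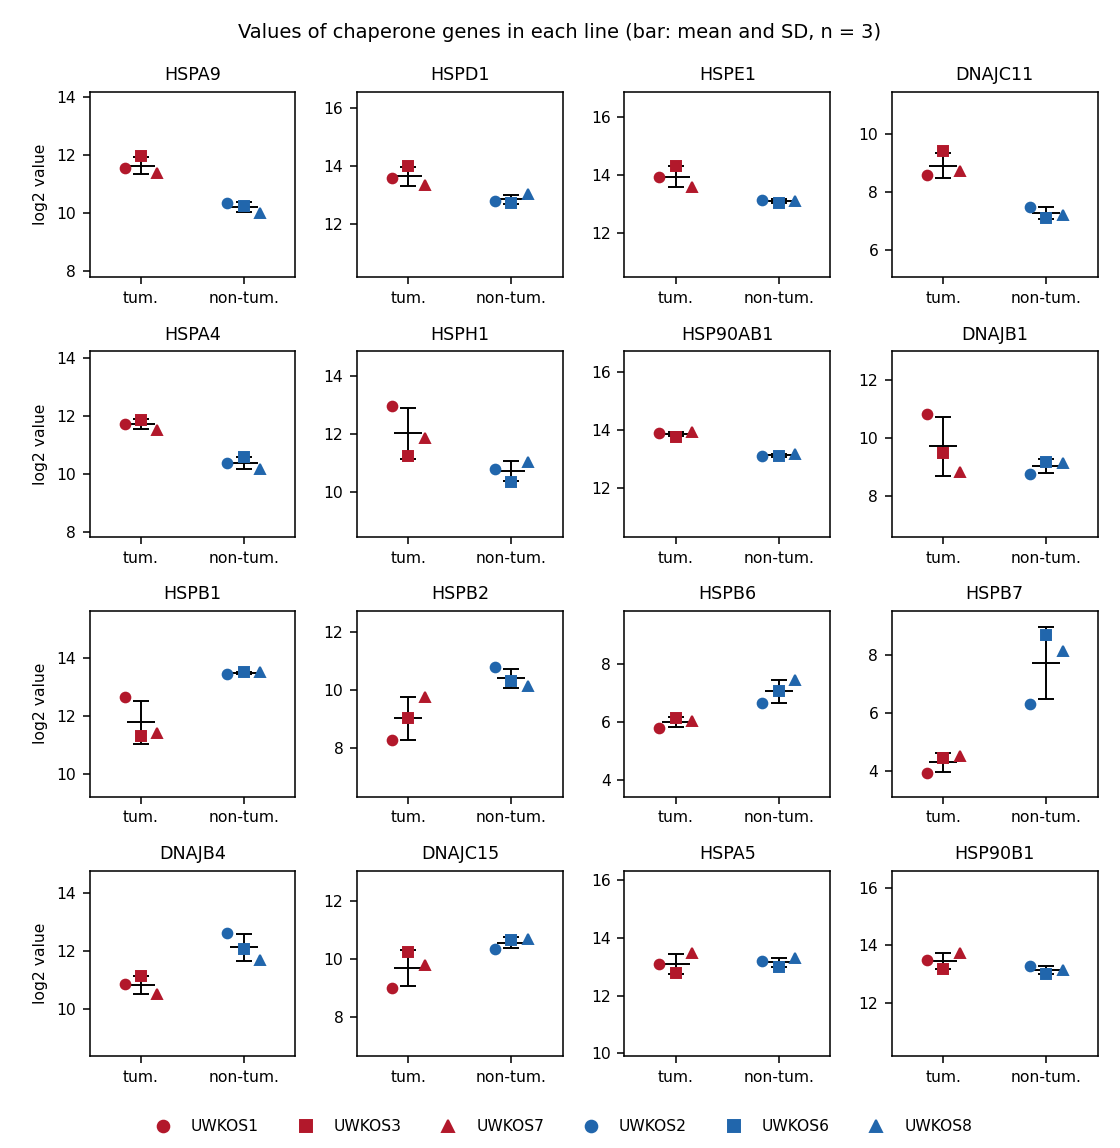
Log2 value (vertical axis, spanning the same number of log2 units in each panel) of 16 chaperone genes in each line, tumorigenic in red and non-tumorigenic in blue, with the mean and SD of each group (n = 3). The values of HSPA9, HSPA4, HSP90AB1 and DNAJC11 are separated upward in the tumorigenic lines, those of HSPB1, HSPB6, HSPB7 and DNAJB4 downward, and those of HSPA5, HSP90B1 and DNAJB1 overlap.

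Among J-domain proteins, of 27 tested, 3 rose (11.1%, against 7.5% of all genes) and 1 fell (3.7%, against 4.63%), with a median of 0.07. Of the 19 other members 4 rose (21.1%) and 2 fell (10.5%), of which HSPB6 passed the filter only through the non-tumorigenic lines. The median of the 19 was 0.50. The difference between these medians was not tested. Class A proteins, which most resemble bacterial DnaJ, gave no call among 3, and 1 was higher at an unadjusted p under 0.05. DNAJA3, the mitochondrial partner of HSPA9, read 8.43, 8.89 and 7.54 against 7.54, 7.05 and 7.42, with UWKOS7 level with UWKOS2, and its difference of 0.95 (SE 0.36) did not pass (adjusted p = 0.127). DNAJA4, a cytosolic member, spread over 2.63 log2 units across the 6 lines and differed by 0.33 (SE 0.83). DNAJA2, the class A gene of highest mean, differed by 0.11 (SE 0.31).

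DNAJB4, a cytosolic class B protein described as a tumour suppressor in human lung cancer, fell. It read 10.84, 11.11 and 10.50 against 12.62, 12.05 and 11.68, without overlap, a difference of -1.30 (SE 0.29, adjusted p = 0.0385). UWKOS2 was the highest line, so against it alone the difference was -1.80. On the second probe set the difference of -1.24 did not pass (adjusted p = 0.081). DNAJB4 passed in 8 of 19 alternatives and in no fit that left out a single line.

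DNAJB1, the main heat-inducible J-domain partner of cytosolic HSP70, was highest in UWKOS1, as HSPH1 was. It read 10.84, 9.49 and 8.84 against 8.76, 9.20 and 9.15, a difference of 0.69 (SE 0.50, adjusted p = 0.384). DNAJB9, an ER member induced by the unfolded protein response, read 9.26, 8.11 and 8.55 against 9.79, 9.63 and 9.74, and its difference of -1.08 (SE 0.30) did not pass (adjusted p = 0.0646).

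The other tested class B genes, DNAJB6, DNAJB11, DNAJB12 and DNAJB14, had differences between -0.54 and 0.10, none of which passed. DNAJB3, DNAJB5, DNAJB7, DNAJB8 and DNAJB13 were below the filter. The class B median was -0.20. It was -0.10 without UWKOS3, -0.36 without both UWKOS6 and UWKOS8, -0.09 without the filter, -0.03 with hybridization-control centring and -0.01 with probe sets averaged per gene.

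Class C proteins share only the J domain and serve specialised sites, and 3 of 17 tested rose (17.6%, against 7.5% of all genes). DNAJC11, a protein of the mitochondrial membranes linked to cristae organisation, had the widest difference of all members that rose. It read 8.58, 9.39 and 8.71 against 7.48, 7.10 and 7.21, a difference of 1.63 (SE 0.25, 3.10-fold, adjusted p = 0.0197). Against UWKOS2 the difference was 1.42. Of its 4 other tested probe sets 3 rose, by 1.09, 1.74 and 1.48, and the last differed by -0.03 (adjusted p = 0.93). The probe set that rose by 1.48 passed the filter only through the tumorigenic lines, since its non-tumorigenic mean of 5.37 lies below it. That call is therefore no independent support.

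DNAJC2, which forms the ribosome-associated complex with HSPA14, read 9.88, 10.35 and 9.96 against 9.21, 9.21 and 9.27. The non-tumorigenic lines were almost equal and all lower, and the difference was 0.83 (SE 0.18, adjusted p = 0.035), with 0.96 on the second probe set (adjusted p = 0.0311). DNAJC7, which binds both HSP70 and HSP90 through tetratricopeptide repeats, read 11.02, 11.32 and 11.12 against 10.53, 10.44 and 10.42. Its difference was 0.69 (SE 0.15, adjusted p = 0.0385). Of its other probe sets, 1 rose by 0.93 (adjusted p = 0.0335) and 1 differed by 0.64 and did not pass (adjusted p = 0.0672). DNAJC7 passed in 9 of 19 alternatives and in no fit that left out a single line.

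DNAJC9, a chaperone of histones H3 and H4, read 10.76, 9.84 and 10.62 against 8.90, 8.55 and 9.68. UWKOS8 came close to UWKOS3, and the difference of 1.36 (SE 0.37) did not pass (adjusted p = 0.0625), nor did that of 1.33 on its second probe set (adjusted p = 0.0531). DNAJC15, a protein of the inner mitochondrial membrane known to restrain respiratory complex I, read 9.02, 10.25 and 9.79 against 10.36, 10.66 and 10.68. All 3 tumorigenic lines were lower, with a difference of -0.88 (SE 0.32) that did not pass (adjusted p = 0.118), and -1.14 on the second probe set (adjusted p = 0.0675).

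The other 12 tested class C genes did not pass. DNAJC19, the class C gene of highest mean and a part of the mitochondrial import motor, differed by 0.18, and DNAJC4 by -0.37 (adjusted p = 0.156). DNAJC17 and DNAJC8, which work with the spliceosome, differed by 0.64 and 0.07, and DNAJC21, a factor of ribosome assembly, by 0.39. DNAJC13, a protein of endosomes, differed by -0.48, and DNAJC1, DNAJC3, DNAJC10, DNAJC18, DNAJC25 and DNAJC30 had differences between -0.35 and 0.18. Below the filter were DNAJC5B, DNAJC6, DNAJC12, DNAJC16, DNAJC22 and DNAJC27. DNAJC22 read 7.98 in UWKOS3 and at most 5.69 in the other lines. The class C median of 0.07 changed sign to -0.01 when the arrays were centred on their 75th percentile, and it was 0.17 without UWKOS1, 0.13 without UWKOS6, 0.12 without UWKOS3 and 0.02 without UWKOS8.

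**Figure D3:**
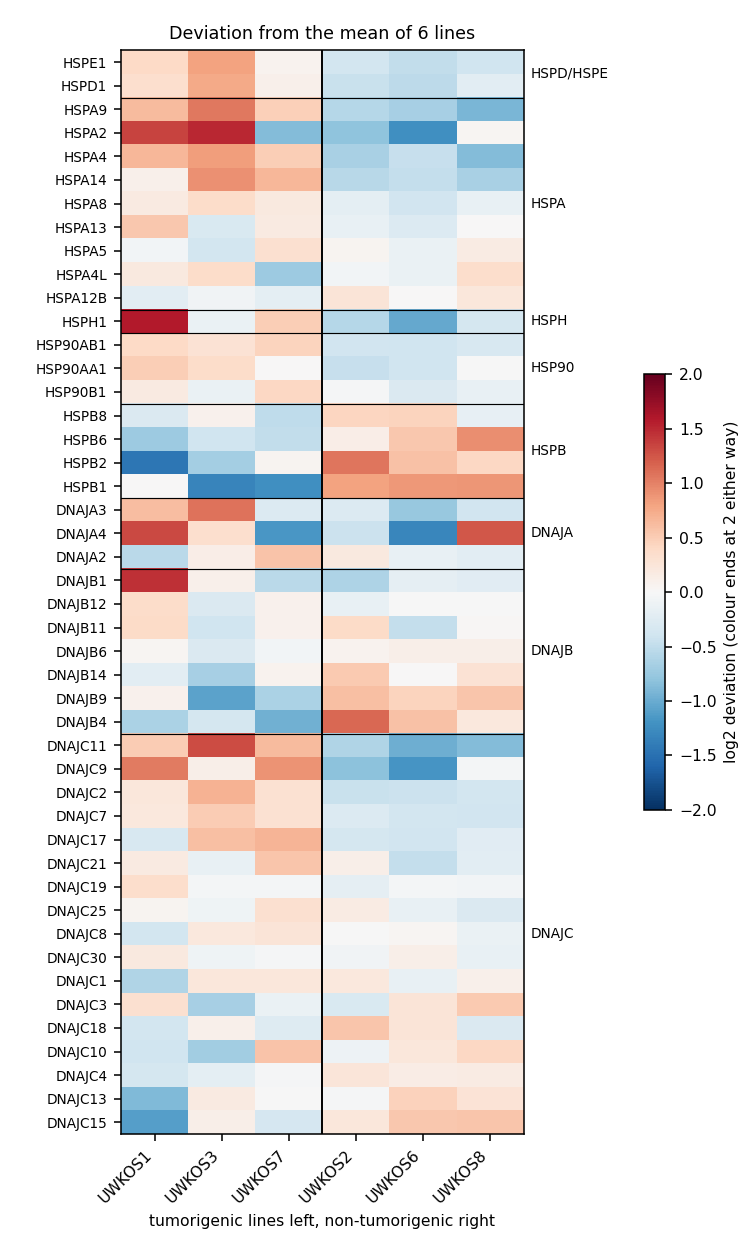
Deviation of each tested member (rows, by family) from its mean over the 6 lines (columns), in log2 units, red above and blue below. The rows of HSPA9, HSPA4, HSP90AB1 and DNAJC11 are red in all 3 tumorigenic lines and those of HSPB1, HSPB2 and HSPB6 blue or pale there, while HSPH1 and DNAJB1 are darkest in UWKOS1.

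By compartment, 2 of 9 tested mitochondrial members, HSPA9 and DNAJC11, rose (22.2%, against 7.5% of all genes), with a median of 0.79, and none fell. In the same limma fit 5 were higher and 2 lower at an unadjusted p under 0.05, as were 32% of all genes in either direction. Of 11 tested ER members none passed, 0 were higher and 1 was lower at an unadjusted p under 0.05, and the median was -0.06. Centring on the hybridization controls turned it to 0.11. HSPA5 (BiP), the HSP70 of the ER and the usual marker of its stress response, read 13.07, 12.76 and 13.45 against 13.19, 12.98 and 13.29. These groups overlapped throughout; the difference of -0.06 had a 95% interval from -0.58 to 0.47 (adjusted p = 0.879), and it was 0.11 under the same centring. The 26 tested members of neither compartment gave 5 higher and 3 lower calls (19.2% and 11.5%, against 7.5% and 4.63% of all genes). HSPB6, 1 of the 3 lower, passed the filter only through the non-tumorigenic lines. The median of the 26 was 0.36.

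Lines differed among themselves within these families. The median deviation of the 4 tested HSPB genes from their mean over lines was -0.51, -0.54 and -0.50 in UWKOS1, UWKOS3 and UWKOS7 and 0.61, 0.56 and 0.65 in UWKOS2, UWKOS6 and UWKOS8. Of the 4, 2 were called lower, and HSPB6 passed the filter only through the non-tumorigenic lines. These medians are therefore no further support for a lower HSPB family. For the HSPA genes the median deviation was 0.20, 0.37 and 0.20 against -0.20, -0.39 and 0.01. UWKOS3 held the highest value in 13 of the 46 members (28.3%, against 20.6% of all genes) and UWKOS6 the lowest in 14 (30.4%, against 19.3%).

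**Figure D4:**
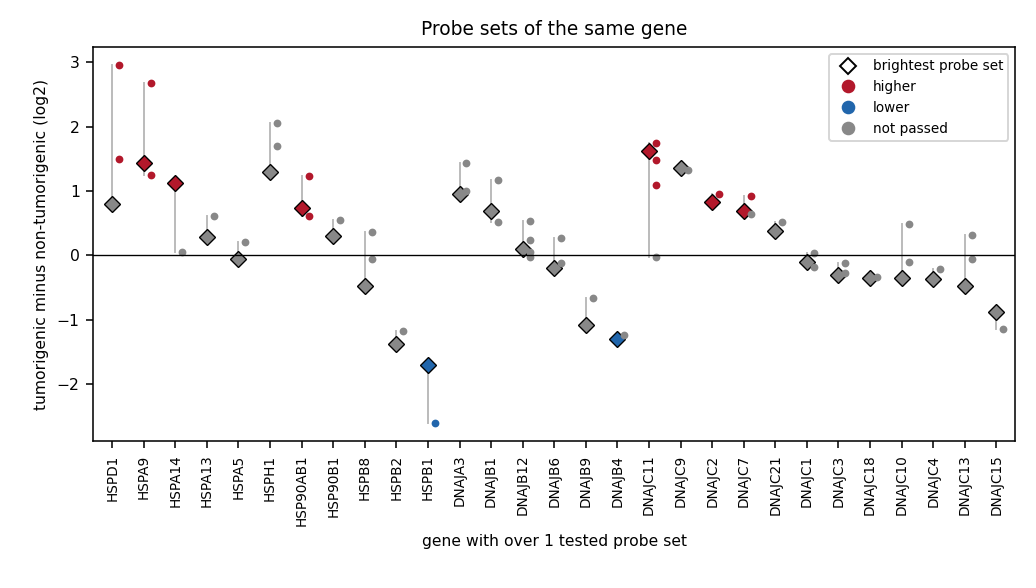
Differences (vertical axis, log2) of all tested probe sets of the 29 members with more than 1 (horizontal axis); diamonds are the brightest probe sets, circles the others, red higher, blue lower and grey not passed. The probe sets of HSPD1, HSPA9, HSPH1, HSP90AB1 and DNAJC2 lie above 0 and those of HSPB1, HSPB2 and DNAJB4 below it, and those of DNAJC11 and HSPB8 lie on both sides.

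Of the 131 probe sets 94 were tested, of which 18 rose and 4 fell. Of all tested probe sets 7.28% rose and 4.74% fell. Among the called ones, that of HSPB6 and 1 of DNAJC11 passed the filter only through 1 group. In 21 of the 29 members with more than 1 tested probe set all differences had the same sign, and in 8 they did not.

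The partners of these chaperones were read from lists of their pathway. In the limma fit 7.5% of all genes rose and 4.63% fell, and 32% had an unadjusted p under 0.05 in either direction. The list of heat shock factors, which also holds their binding proteins HSF2BP and HSBP1, gave no limma call among 5; the 1 gene higher at an unadjusted p under 0.05 was HSF2BP. HSF1, the main activator of heat shock genes, read 9.16, 8.50 and 8.90 against 8.75, 8.75 and 8.67, a difference of 0.13 (SE 0.20, adjusted p = 0.692). HSF2 differed by 0.39 (adjusted p = 0.336), HSF2BP by 0.57 (adjusted p = 0.0817) and HSF4 by -0.38 (adjusted p = 0.279). Of 20 tested genes on a list of HSF1 targets, which includes the constitutive HSP90AB1 and HSPA8, 3 rose (HSPA4, HSP90AB1 and STIP1) and 2 fell (CRYAB and HSPB1), with a median of 0.52; 10 of them belong to the families above.

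Cochaperones of HSP90 held 6 higher genes among 23 tested (26.1%, against 7.5% of all genes) and no lower genes, with a median of 0.43. TTC4, an HSP90 cochaperone with tetratricopeptide repeats, read 8.82, 8.80 and 8.58 against 7.64, 7.10 and 7.25, a difference of 1.40 (SE 0.19). PTGES3 (p23), which binds the ATP-bound form of HSP90, rose by 1.26, and STIP1 (HOP), which passes clients from HSP70 to HSP90, by 0.84. The cyclophilin PPID rose by 0.89, NUDCD2 by 0.90 and TOMM70, the import receptor that docks HSP70 and HSP90 at mitochondria, by 0.63. FKBP4, an immunophilin of steroid receptor complexes, read 13.39, 12.17 and 11.01 against 10.73, 9.90 and 10.99, a difference of 1.65 that did not pass (adjusted p = 0.124). None of the 6 passed without UWKOS6.

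The cytosolic chaperonin CCT, which folds actin and tubulin, had a higher mean in the tumorigenic lines in all 7 of its tested subunits, with a median difference of 0.78. In 5 of the 7 all tumorigenic values lay above all others, against 21.7% of all genes. Of the 7 subunits 3 passed (42.9%, against 7.5% of all genes). CCT8 read 13.02, 13.08 and 12.90 against 11.99, 11.77 and 11.91 (1.11, SE 0.15), and CCT5 and CCT4 each rose by 0.85. None of the 3 passed without UWKOS6. Prefoldin, which hands actin and tubulin to CCT, gave no call among 4 and none at an unadjusted p under 0.05, with a median of 0.22; VBP1 differed by 0.71 (adjusted p = 0.157).

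The list of nucleotide exchange factors, which leaves out HSPA4 and HSPH1, gave no limma call among 11, and 2 were higher at an unadjusted p under 0.05. These were GRPEL1 and GRPEL2, the exchange factors of HSPA9, with differences of 0.92 (adjusted p = 0.0646) and 0.66 (adjusted p = 0.0826). BAG3, the partner of HSPB8, differed by -0.60 (adjusted p = 0.311). Of 13 tested mitochondrial chaperones and proteases, TIMM44, which tethers HSPA9 to the import channel, rose by 1.42 (SE 0.27, adjusted p = 0.0278) and none fell, with a median of 0.44; without UWKOS6 TIMM44 did not pass. HTRA2, a protease of the intermembrane space, read 7.20, 5.70 and 8.53 against 9.40, 9.91 and 9.88 and did not pass (-2.58, SE 0.67, adjusted p = 0.0558).

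Genes of ER folding and the unfolded protein response gave no call among 19, and 3 were lower at an unadjusted p under 0.05, with a median of -0.21. XBP1, a transcription factor of that response, differed by -1.0 (adjusted p = 0.0866), HERPUD1, a factor of ER-associated degradation, by -1.08 (adjusted p = 0.113) and SEL1L by -0.49 (adjusted p = 0.104).

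**Figure D5:**
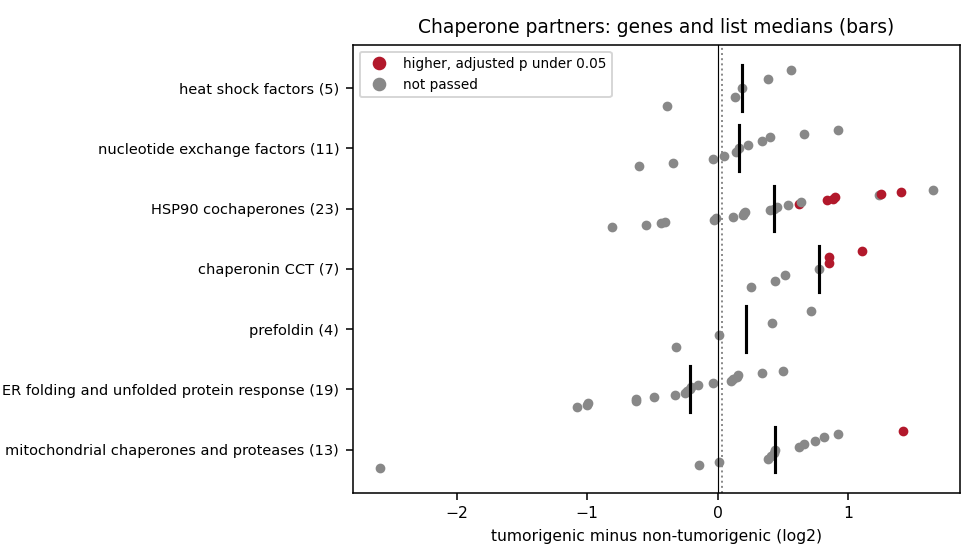
Differences (horizontal axis, log2) of the tested genes in 7 lists of chaperone partners, with the number tested in brackets; each point is a gene, red where it rose and grey where it did not pass, bars mark list medians and the dotted line the median of all genes (0.03). The differences of the CCT subunits all lie right of 0, and the red points are 6 HSP90 cochaperones, 3 CCT subunits and TIMM44.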

How the data were processed

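Per the labels, total RNA of 6 cultured lines was hybridised to Affymetrix canine arrays. The authors deposited 1 table of log2 values for 43035 probe sets; the submitters' processing notes name MAS5, with no version, and the nearly equal quantiles of the columns are unusual for it, so the summary method is not settled. The values were used as deposited; the planned offset was not needed on this scale, and 0 columns were left unused. Genes were named from the platform annotation where a probe set had 1 symbol, with symbols updated through the RefSeq table of UU_Cfam_GSD_1.0. The brightest probe set stood for each gene. Groups were compared with limma 3.58.1 in R 4.3.3 (lmFit, eBayes, no covariate) over the 9145 genes with a mean of at least 6.07, Benjamini-Hochberg adjusted, at a threshold of 0.05. Further probe sets come from the same fit over 21462 tested probe sets. The scripts were tested on simulated data. The number of arrays limits the precision.

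The members and lists were chosen with earlier results of these data known. Named are all members that passed, the 2 of smallest p, the brightest and the 2 most variable of each family, members with groups apart by more than 1, HSF1 and HSF2, and in each list those that passed or the 3 of smallest p; the other members named, and HSPA5, HSP70 and FKBP4, were chosen after their values were seen. Alternatives changed the filter, scaling, prior, weights, probe set and lines; a covariate of the mean end ratio of the GAPDH and actin controls was added after the data were seen. Figures were drawn with matplotlib 3.10.9.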

Additional observations from a re-analysis of the deposited data

How the results depend on the processing

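The 7 higher and 3 lower calls became 0 and 0 with either end-ratio covariate (GAPDH alone, or the mean with actin) and with UWKOS6 and UWKOS8 both left out, a fit that takes the lone UWKOS2 to vary like the tumorigenic lines; the cause was not tested. Leaving out single lines gave 0 to 9 higher and 0 to 2 lower calls. Lower calls numbered 1 with centring on the hybridization controls (3.32% of all genes) and 5 with array weights (6.13%). No called gene changed sign in the alternatives run. The HSPB median was -1.07 without the filter (with 3 more genes), -1.38 with the upper-quartile filter (fewer genes), -1.28 with quantile normalization, -1.31 with 75th-percentile centring, -1.06 with hybridization-control centring, -1.18 with probe sets averaged per gene, -1.13 and -1.11 with the GAPDH and mean covariates, -1.16 without both lines, and -1.30, -1.27 and -0.99 without UWKOS7, UWKOS3 and UWKOS1. The DNAJC median was 0.18 without the filter and 0.24 with hybridization-control centring (0.02 to 0.17 without single lines); that of HSPA was 1.12 with the upper-quartile filter and 0.67 with hybridization-control centring (0.43 to 0.54). The HSP90 median was 0.75 with hybridization-control centring, 0.73 with the GAPDH covariate and 0.75 without both lines (0.47 to 0.72 without single lines, with 0.71 without UWKOS7), that of HSPD and HSPE 1.30 with probe sets averaged per gene, and that of DNAJA 0.85 with the GAPDH covariate (0.06 to 1.00 without single lines, with 0.99 without UWKOS8). No paired analysis was possible because the replicate numbers follow accession order and pair no lines. Dim probe sets, such as those of HSPB6 and HSPB7, limit the size of a difference.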
